A study of Rattus norvegicus with 12 samples.

Results

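The genes described here encode 4 kinds of xenobiotic-metabolizing enzyme: cytochrome P450 enzymes of the families Cyp1 to Cyp4, UDP-glucuronosyltransferases (Ugt1 and Ugt2), glutathione S-transferases (Gst) and sulfotransferases (Sult). They were chosen by the beginning of the array's gene name, and a probe was kept where its spot was flagged good on 6 or more of 12 arrays. Of 104 such names on the array, 44 had a probe that passed. After an update of names these stood for 45 genes, among 10451 genes tested in all. The arrays held RNA labelled as colonic epithelium of male Wistar rats of 180 to 200 g. For 6 weeks, 6 samples' animals ate a normal protein diet and 6 ate a high protein diet, and no genotype, drug or other agent is named for either group. The labels used here give neither the protein content of the diets, nor the animals' age, nor where along the colon the tissue was taken. They also do not say whether replicates were separate animals, so the p-values measure the spread between these samples.

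P450 enzymes are heme proteins that oxidize drugs, dietary compounds, fatty acids and eicosanoids with electrons passed on by the reductase Por. Glucuronosyltransferases, glutathione S-transferases and sulfotransferases then attach glucuronic acid, glutathione or sulfate to such compounds, which makes them easier to export. In the gut wall these enzymes meet compounds from food and from bacteria. Hox genes keep position along the gut: Hoxb13 is a gene of the distal colon, and Hoxb6 is expressed further forward. The array's level of both Hox genes was therefore used to order the samples.

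The 12 arrays are written NP1 to NP6 (normal protein) and HP1 to HP6 (high protein), and every level is a normalized log2 intensity, which may be compared between arrays for 1 gene but not between genes. Hoxb13 took 2 separate ranges. It lay between 11.996 and 12.56 on NP1, NP2, HP1, HP2, HP5 and HP6, and between 5.83 and 9.32 on the other 6 arrays. Hoxb6 lay between 10.82 and 10.95 on NP6, HP3 and HP4 and between 6.51 and 7.49 on the other 9 arrays. No array was high in both genes, and the 3 arrays low in both, NP3, NP4 and NP5, were all from normal protein. The upper Hoxb13 range held 2 normal protein and 4 high protein arrays, so diet and Hoxb13 level were not balanced. Each of 3 slides carried 4 arrays, with both diets and both Hoxb13 ranges on every slide.

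The labelled tissue was checked with marker genes, and the level of a list on an array is the average of the log2 values of those of its genes that were tested. All 8 epithelial markers were tested, with a list level between 11.47 and 12.40 on every array. All 8 smooth muscle markers (10.64 to 11.86) and all 6 fibroblast markers (10.51 to 11.31) were tested as well, so transcripts of the colon wall beyond the epithelium were measured on every array. Of 6 liver markers only Apoa1 was tested, with Alb, Ttr, Serpina1, Fgb and Apoh below the flag rule. None of 4 squamous markers was tested. The fat list (Adipoq, Fabp4 and Cfd) stood at 13.73 on NP6, at 10.02 on HP5 and between 7.54 and 8.88 on the other 10 arrays, so NP6 stood apart. In RNA from mixed tissue, fewer cells of a type and less RNA per cell cannot be told apart. Between 42.67% and 55.86% of gene spots were flagged good per array.

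Among the genes described below are 4 Cyp4f genes from the same region of chromosome 7. Of these, 3 were lower and 1 was higher where Hoxb13 was high, and Gsta3 was higher where Hoxb6 was high. The stretches of DNA before the start sites of these 5 genes are shown. Each is the 250 bases upstream of the start, read 5′ to 3′ on the gene's strand, from RefSeq promoters of the GRCr8 build. Capitals mark exact matches, on either strand, to GCGTG, the core read by the aryl hydrocarbon receptor, and to TGACNNNGC, the core of the antioxidant response element. TTTATG, a form of the site of CDX proteins, was searched too and is in none of these 5 stretches. Other forms of that site were not searched.
Cyp4f1, chr7:12672554-12672803, minus strand: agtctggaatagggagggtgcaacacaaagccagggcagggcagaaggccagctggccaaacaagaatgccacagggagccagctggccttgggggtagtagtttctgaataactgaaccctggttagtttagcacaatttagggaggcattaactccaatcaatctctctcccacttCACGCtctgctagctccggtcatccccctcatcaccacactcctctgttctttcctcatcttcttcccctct
Cyp4f6, chr7:12708379-12708628, minus strand: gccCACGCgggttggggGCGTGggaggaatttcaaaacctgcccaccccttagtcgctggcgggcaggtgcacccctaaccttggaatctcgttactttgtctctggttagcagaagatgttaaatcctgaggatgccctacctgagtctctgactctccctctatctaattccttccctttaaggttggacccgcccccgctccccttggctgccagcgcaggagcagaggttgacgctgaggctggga
Cyp4f40, chr7:12342340-12342589, plus strand: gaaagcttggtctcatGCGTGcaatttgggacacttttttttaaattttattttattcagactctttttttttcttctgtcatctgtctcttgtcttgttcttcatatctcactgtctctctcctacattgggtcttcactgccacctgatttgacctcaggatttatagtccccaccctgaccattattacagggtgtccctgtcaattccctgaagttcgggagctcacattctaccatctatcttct
Cyp4f5, chr7:12194387-12194636, plus strand: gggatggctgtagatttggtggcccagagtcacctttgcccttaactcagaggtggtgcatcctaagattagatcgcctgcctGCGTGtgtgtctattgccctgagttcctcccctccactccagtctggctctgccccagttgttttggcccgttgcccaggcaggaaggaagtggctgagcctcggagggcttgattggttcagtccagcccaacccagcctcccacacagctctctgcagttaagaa
Gsta3, chr9:31154739-31154988, plus strand: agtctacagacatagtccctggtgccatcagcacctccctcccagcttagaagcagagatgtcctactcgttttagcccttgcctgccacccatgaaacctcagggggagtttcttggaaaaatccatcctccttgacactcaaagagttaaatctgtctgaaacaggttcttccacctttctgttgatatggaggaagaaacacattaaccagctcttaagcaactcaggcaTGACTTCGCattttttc
The GCGTG core lay 68 to 72 bases before the start in Cyp4f1 and 163 to 167 bases before it in Cyp4f5. Gsta3, of which the first of its 2 listed start sites is shown, held TGACNNNGC at 9 to 17 bases before the start. The stretch before its other start site held GCGTG and no TGACNNNGC. The stretches of Cyp2c24 and Cyp2f4, which are not printed, held no match to GCGTG, TGACNNNGC or TTTATG. Over all 33469 promoters of the same length, 25.9% held GCGTG, 10.1% held TGACNNNGC and 11.4% held TTTATG. Of 41 tested enzyme genes with a promoter in the table, 13 held GCGTG, 8 held TGACNNNGC and 0 held TTTATG. All 4 Cyp4f stretches hold GCGTG, and whether the core bears on the genes' values was not tested. These matches describe letters in a window and not binding.

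Which of the enzymes were measurable differed by family. Glutathione S-transferases were the most complete, with 19 of 22 names passing the flag rule. Of the P450 names, 0 of 3 passed in Cyp1, 9 of 34 in Cyp2, 2 of 6 in Cyp3 and 7 of 15 in Cyp4. Among the conjugating enzymes, 5 of 13 Sult, 1 of 2 Ugt1 and 1 of 9 Ugt2 names passed. In all, 54 names were flagged good on no array and 6 on 1 or 2 arrays. Cyp1a1, which oxidizes polycyclic aromatic hydrocarbons, was flagged good on HP4 only. Cyp1a2, Cyp1b1 and Cyp2e1, the ethanol-oxidizing P450, were flagged good on none of the 12 arrays. Among sulfotransferases the same held for the hydroxysteroid enzymes Sult2a1, Sult2a2, Sult2a6 and Sult2b1. Flags show only that a spot was not found above its surroundings at this signal.

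Of the 45 tested genes, 25 were flagged good on all 12 arrays and 5 on exactly 6. The median SD of a gene over the 12 arrays was 0.42 on the log2 scale, and 15 genes spanned more than 2 log2 units between their lowest and highest array. Cyp4f1 varied most, with an SD of 2.56, followed by Cyp2c24 with 1.77 and Cyp4a8 with 1.16. In the other families the widest were Cyp3a9 (SD 0.59), Gsta3 (0.79), Sult1c2 (0.78), Sult1c2a (0.78), Ugt2b10 (0.34) and Ugt1a6 (0.29).

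**Figure D1:**
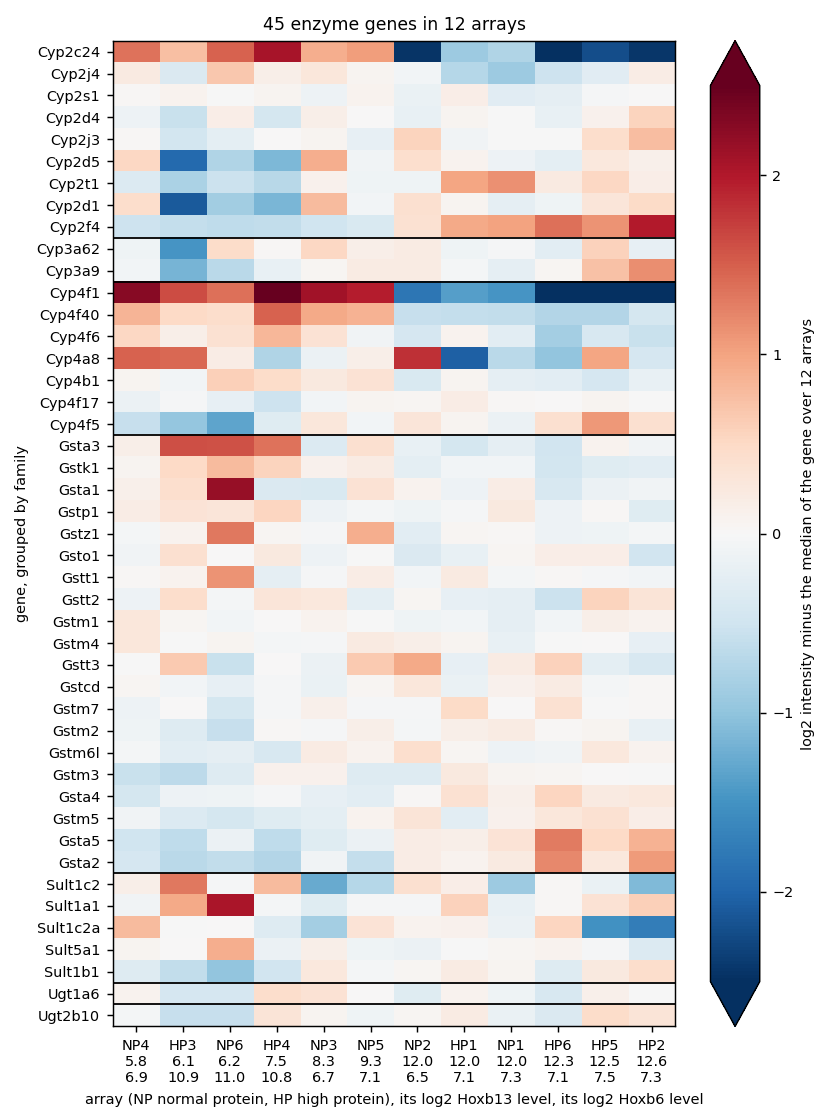
Each row is 1 of the 45 tested enzyme genes, grouped by family, and each column is 1 of 12 arrays in order of its log2 Hoxb13 level, with that level and the log2 Hoxb6 level under its name. Colour gives the log2 intensity minus the gene's median over the 12 arrays; Cyp2c24, Cyp4f1 and Cyp4f40 are red on the 6 left arrays and blue on the 6 right ones, and Cyp2f4, Gsta2 and Gsta5 run the other way.

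The first comparison asked whether the enzymes responded to more dietary protein. No enzyme gene passed the threshold for a diet difference (limma, adjusted p under 0.05), and neither did any other gene: percent called was 0 of the 10451 tested. The smallest adjusted p of an enzyme gene was 0.70, against 0.68 over all genes. At an unadjusted p under 0.05 there was 1 enzyme gene of 45, where 6.64% of all genes lay. High protein minus normal protein was above 0 in 22 enzyme genes and below 0 in 23, where 51.5% of all genes lay above 0. The median was -0.002, against 0.005 over all genes. Scaling each array to its median in place of quantile normalization moved the median of all genes to 0.135 and put 26 enzyme genes above 0; unadjusted p-values under 0.05 over all genes then split into 1038 higher and 41 lower, against 383 higher and 311 lower. No enzyme gene had diets that did not overlap, against 0.383% of all genes, and 37 of 45 differences were smaller than 0.5 in size.

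Gsta4, a transferase that conjugates lipid aldehydes such as hydroxynonenal, had the smallest p of the enzymes. It was measured on normal protein at 9.45 (lowest), 9.74 (median) and 10.04 (highest) and on high protein at 9.78, 10.14 and 10.43. The diets overlapped, and the difference was 0.35 ± 0.13 (SE, 6 arrays per diet; limma adjusted p = 0.70). Its lowest arrays, NP3, NP4 and NP5, were those low in both Hox genes. With Hoxb13 and Hoxb6 in the fit its difference was 0.18 (limma adjusted p = 0.80).

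Cyp4f1, a leukotriene and fatty acid omega-hydroxylase, had the largest diet difference in size, -2.09 ± 1.24 (SE). Its values on normal protein were 8.23 (lowest), 11.71 (median) and 12.32 (highest), and on high protein 6.02, 7.77 and 12.70. The diets overlapped fully, since HP4 held the highest value of all 12 arrays and HP2 the lowest. The 95% interval of the difference ran from -4.77 to 0.58 (limma adjusted p = 0.73). Its levels followed the Hoxb13 range within each diet. All 4 high protein arrays in the upper Hoxb13 range lay between 6.02 and 8.65, and HP3 and HP4 were at 11.65 and 12.70. With both Hox genes in the fit the difference was -0.79 (limma adjusted p = 0.87).

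The other genes with the smallest p on the high side were Gstm7 with a difference of 0.23, Cyp2f4 with 0.81 and Sult1c2 with 0.57. Those on the low side were Cyp3a62 with -0.44, Cyp2d5 with -0.62 and Gsta1 with -0.54. Their adjusted p-values in limma lay between 0.73 and 0.75, and their diets overlapped. With both Hox genes in the fit the differences were 0.32 for Gstm7, 0.43 for Cyp2f4 and 0.61 for Sult1c2. In the same fit they were -0.59 for Cyp3a62, -0.25 for Cyp2d5 and -0.95 for Gsta1, none past the threshold. Of all 45 enzyme genes, 22 had a smaller difference in size in that fit than with diet alone. At an unadjusted p under 0.05 it held 2 enzyme genes, against 6.61% of all genes. Single arrays moved several of the differences fitted with diet alone by more than 1.5 times. Gstm7 ran from 0.15 to 0.27 when each array was left out in turn, Cyp2f4 from 0.56 to 1.07, Sult1c2 from 0.34 to 0.83 and Cyp4f1 from -2.90 to -1.56. Cyp3a62, for which HP3 was lowest at 7.40, ran from -0.61 to -0.19. Cyp2d5, for which HP3 was also lowest at 8.58, ran from -0.80 to -0.33, and Gsta1 from -0.70 to -0.19. Other processing moved some by more than 1.5 times as well, with the sign kept and none past the threshold. With the deposited signal less the negative controls the difference was 1.56 for Cyp2f4 and 1.03 for Sult1c2, and with the deposited value table it was 2.16 and 1.79. Scaled to the array median it was 0.56 for Gsta4, 0.35 for Gstm7, -0.24 for Cyp3a62 and -0.39 for Cyp2d5, and with array weights 0.35 for Sult1c2 and -0.28 for Cyp3a62.

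**Figure D2:**
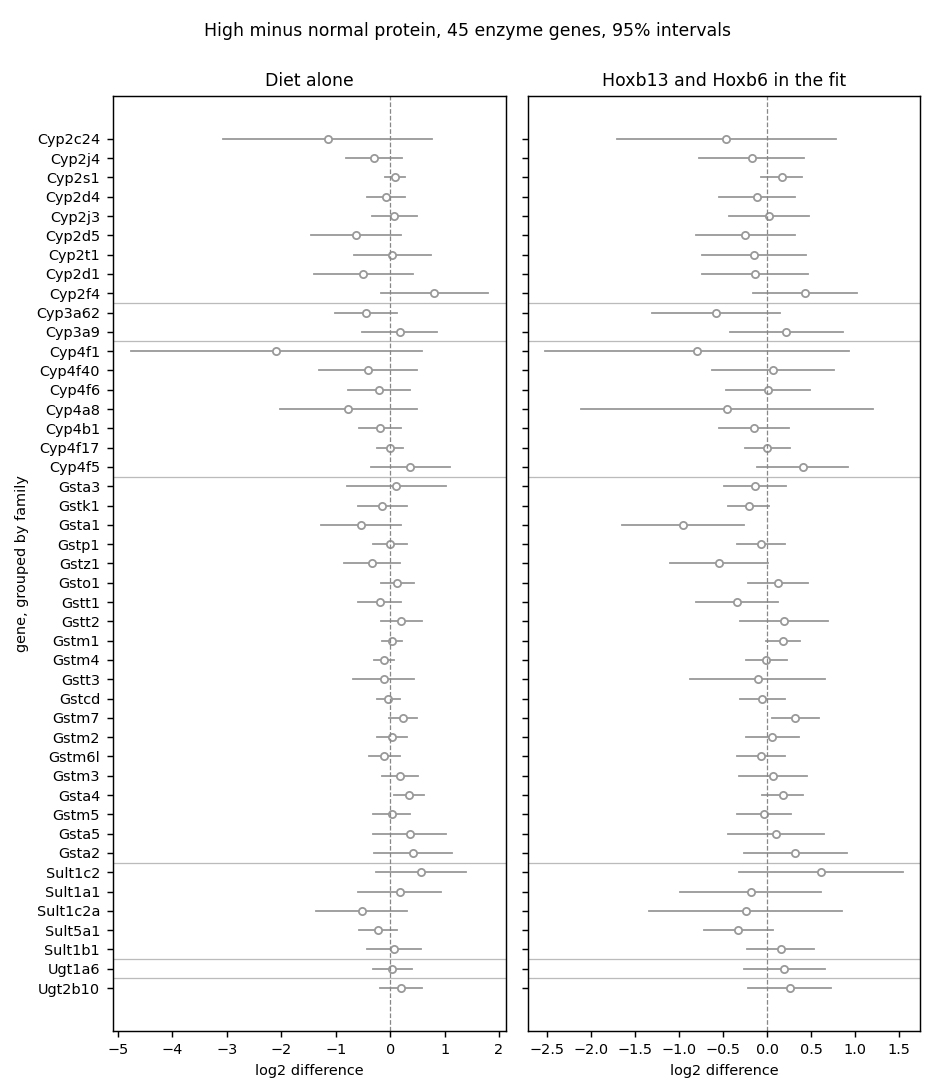
Points are the log2 difference, high protein minus normal protein, of the 45 enzyme genes (6 arrays per diet) and lines their 95% intervals, fitted with diet alone (left) and with the Hoxb13 and Hoxb6 levels as further terms (right). No gene passed an adjusted p under 0.05 in either fit, so all points are open; Cyp4f1 has the widest interval in both fits, and the 2 panels have their own horizontal scales.

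The second description set the enzymes against the array's Hoxb13 level, as a slope in log2 per log2 unit of Hoxb13 beside a term for diet. Cyp4f1, Cyp2c24, Cyp4f40, Cyp4f6, Gstk1 and Gsta3 were lower where Hoxb13 was higher, and Cyp2f4, Cyp2t1, Cyp4f5, Gsta2, Gsta4, Gsta5 and Gstm5 were higher. These 13 of 45 genes passed the threshold (limma, adjusted p under 0.05 over all genes), against 3.96% of all 10450 genes; the 7 positive slopes stand beside 2.27% of all genes and the 6 negative ones beside 1.69%. In 8 enzyme genes the values of the 2 Hoxb13 ranges did not overlap, against 3.57% of all genes. Both counts include Cyp2f4 and Cyp4f40, which passed the flag rule only through the Hoxb13 range where they were high and so had to differ. Without them 11 of 43 genes passed and 6 did not overlap. Gsta2, still in both of these counts, was flagged good on all 6 arrays of the upper Hoxb13 range and on 1 of the others. It too reached the flag rule only with the arrays where it was high, so its place there is no support. With only probes flagged good on all 12 arrays, 8 of 26 enzyme genes passed, against 4.29% of all genes so flagged. Because Hoxb13 takes 2 separate ranges, a slope mainly sets those ranges apart. With only the 6 arrays under a Hoxb13 level of 10 no enzyme gene passed, and the slopes of Cyp4f1 and Cyp4f40 turned to 0.11 and 0.14. The count fell to 6 without HP2, to 5 without HP3 and to 4 without HP4. With the slide as a block it was 8. Scaled to the array median, 6 positive and 3 negative slopes passed, and over all genes 206 positive and 68 negative, against 237 and 177.

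Among the P450 enzymes of fatty acids and eicosanoids, Cyp4f1 had the largest slope, -0.77 ± 0.12 (SE, 12 arrays; limma adjusted p = 0.0034). On the upper Hoxb13 arrays it was at 8.55 on NP1, 8.23 on NP2, 8.65 on HP1, 6.02 on HP2, 6.89 on HP5 and 6.16 on HP6, and its spots on HP2 and HP6 were not flagged good. On the other 6 arrays it lay between 11.41 and 12.70. The 2 sets of arrays were 2.76 log2 units apart at their nearest values, so they could not overlap within a slide either. Among the upper arrays, HP2, HP5 and HP6 were below NP1, NP2 and HP1.

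Cyp4f6, the gene next to Cyp4f1 on chromosome 7 with no gene between them, also had a negative slope, -0.15 ± 0.03 (SE; limma adjusted p = 0.026). It lay between 8.36 and 9.29 on the upper Hoxb13 arrays and between 9.12 and 10.03 on the others, so the ranges met. Cyp4f40, a further relative from the same region, had a slope of -0.24 ± 0.05 (SE; limma adjusted p = 0.015). It lay between 6.08 and 6.39 on the upper arrays, flagged good on none of them, and between 7.26 and 8.30 on the others, flagged good on all 6. Since Cyp4f40 passed the flag rule only through the arrays where it was high, its p-value is no support for a difference. Cyp4f5 in the same region ran the other way, with a slope of 0.19 ± 0.04 (SE; limma adjusted p = 0.030) and values of 10.23 to 11.47 against 9.06 to 10.66. Its neighbour Cyp4f17 had a slope of 0.04 (limma adjusted p = 0.25). Probes of such close relatives can share signal, and how far they do was not tested.

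Among the Cyp2 genes, Cyp2c24 had a slope of -0.55 ± 0.08 (SE; limma adjusted p = 0.0037). It was at 8.54 on NP1, 6.84 on NP2, 8.37 on HP1, 6.85 on HP2, 7.06 on HP5 and 6.71 on HP6, and between 10.04 and 11.35 on the other 6 arrays. NP1 and HP1 were thus the highest of the upper Hoxb13 arrays for Cyp2c24, and with NP2 also for Cyp4f1. A second probe of Cyp2c24 had a slope of -0.41. Cyp2f4, a lung-type P450 that bioactivates small aromatic compounds, had the smallest p of the enzymes, with a slope of 0.29 ± 0.04 (SE; limma adjusted p = 0.0019). It lay between 6.96 and 8.54 on the upper arrays, all 6 flagged good, and between 5.93 and 6.18 on the others, none flagged good. Since Cyp2f4 passed the flag rule only through the arrays where it was high, its p-value is no support for a difference. With the authors' deposited signal less the negative controls the slope of Cyp2f4 was 0.48, and that of Cyp4f40 was -0.37. With the deposited value table that of Cyp2f4 was 0.63 and did not pass. Cyp2t1, next to Cyp2f4 with no gene between them, had a slope of 0.18 ± 0.04 (SE; limma adjusted p = 0.025). It lay between 7.95 and 9.20 on the upper arrays and between 7.27 and 8.16 on the others, with NP1 and HP1 highest.

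**Figure D3:**
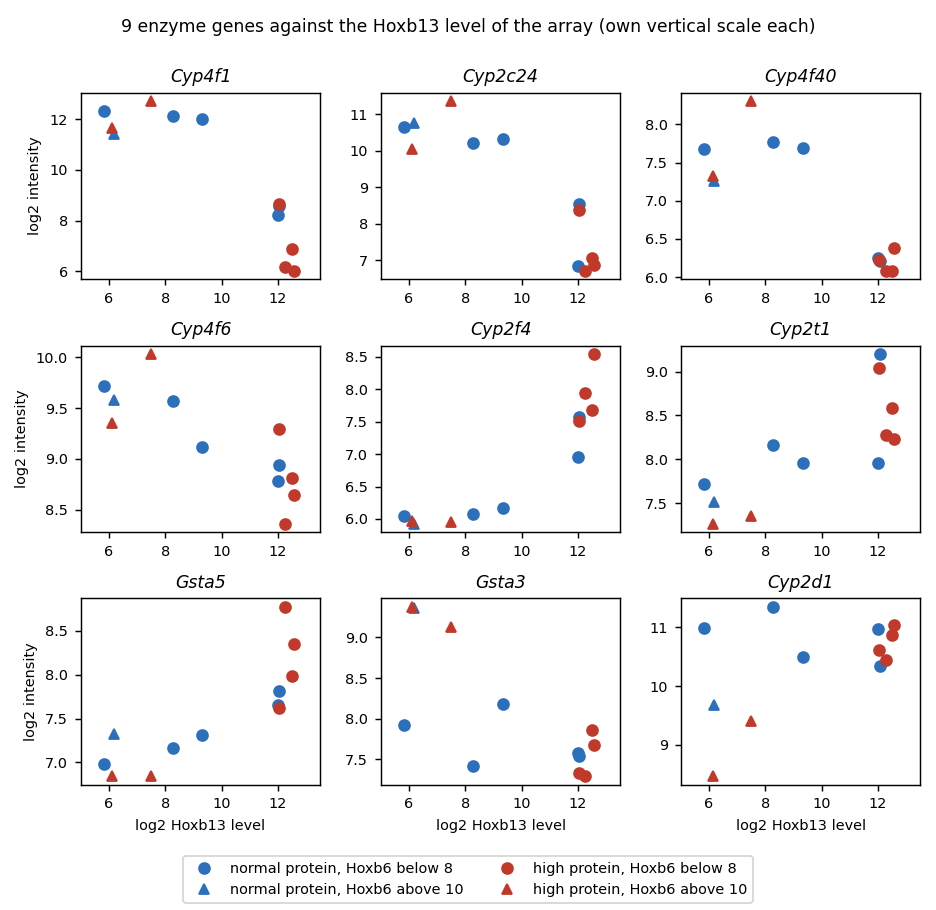
Each panel plots the log2 intensity of 1 gene (vertical axis, own scale) against the log2 Hoxb13 level of the array, with blue for normal protein, red for high protein and triangles for the 3 arrays with Hoxb6 above 10. Cyp4f1, Cyp2c24 and Cyp4f40 drop between the 2 Hoxb13 ranges, Cyp2f4 rises, and Gsta3 and Cyp2d1 set the 3 triangles apart from the circles.

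Among the glutathione S-transferases, 3 alpha-class genes that lie together, Gsta4, Gsta5 and Gsta2, all had positive Hoxb13 slopes past the threshold. Gsta5 had a slope of 0.17 ± 0.04 (SE; limma adjusted p = 0.022), with 7.62 to 8.77 on the upper Hoxb13 arrays and 6.84 to 7.33 on the others. Gsta2 had a slope of 0.18 (limma adjusted p = 0.032) and Gsta4 one of 0.07 (limma adjusted p = 0.036). In none of these 3 genes did the Hoxb13 ranges overlap, so the upper arrays had to be higher within each slide too. Gsta2 was flagged good on all 6 upper arrays and on 1 of the others, so its p-value is no support for a difference. Gsta3, which lies in another place of the genome near Gsta1, had a slope of -0.23 ± 0.05 (SE; limma adjusted p = 0.026). Gstk1, the mitochondrial and peroxisomal kappa-class transferase, had a slope of -0.12 ± 0.02 (SE; limma adjusted p = 0.019), with 7.97 to 8.37 on the upper arrays and 8.50 to 9.23 on the others. Among the mu-class genes only Gstm5 passed, with a slope of 0.09 (limma adjusted p = 0.045), while Gstm1, Gstm2, Gstm3, Gstm4, Gstm6l and Gstm7 had slopes from -0.02 to 0.06 that did not pass. With 1 probe per gene, no sulfotransferase and neither glucuronosyltransferase passed for Hoxb13. Sult1b1 had a slope of 0.12 with the probe used. Its second probe had one of 0.15, which passed when every probe was fitted on its own (limma adjusted p = 0.034). Ugt1a6, which conjugates small planar phenols, had a slope of -0.01 and lay between 11.73 and 12.59 on all arrays.

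Against the Hoxb6 level, Gsta3, Gstk1 and Gstp1 were higher where Hoxb6 was higher, and Cyp2d1, Cyp2d5, Cyp4f5 and Sult1b1 were lower. These 7 of 45 genes passed the threshold (limma, adjusted p under 0.05), against 4.75% of all genes, with 1.95% positive and 2.79% negative. In 11 enzyme genes the 3 arrays with high Hoxb6 did not overlap the other 9, against 4.73% of all genes. These 11 include Cyp2f4 and Gsta2, which were flagged good on none of the 3 arrays. Both passed the flag rule only through the other 9, where they were higher, so their place in this count is no support. Neither is among the 7 genes past the threshold. The count was 4 without NP6 and 4 without HP3, and 2 with the slide as a block. Scaled to the array median, 2 positive and 4 negative enzyme slopes passed, and over all genes 37 positive and 78 negative, against 204 and 292. The smooth muscle list was at 10.64 to 11.41 on the 3 arrays with high Hoxb6 and at 11.30 to 11.86 on the other 9, with 1 of its 8 genes past the threshold, negative. The endothelial list was at 8.62 to 9.79 and 8.52 to 8.76, with 1 of its 3 tested genes past the threshold, positive, and with Cdh5 and Tek not tested. The epithelial list was at 11.60 on NP6, 11.47 on HP3 and 12.33 on HP4, against 11.81 to 12.40 on the other 9. The neural list was at 9.02, 8.07 and 7.29 on these 3 arrays, against 7.31 to 7.90. No gene of the epithelial and neural lists passed the threshold. Their part in the enzyme values was not tested.

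Gsta3, whose upstream stretch is shown above, had the largest positive slope among the genes that passed, 0.44 ± 0.04 (SE; limma adjusted p = 0.00026). It was at 9.36 on NP6, 9.38 on HP3 and 9.13 on HP4, and between 7.29 and 8.18 on the other 9 arrays. The 3 arrays were at least 0.95 log2 units above all others, whichever the diet. A second probe of Gsta3 had a slope of 0.47. Gstk1 had a slope of 0.21 ± 0.03 (SE; limma adjusted p = 0.0023) and was at 9.23, 8.93 and 8.99 on the same 3 arrays. Gstp1, the pi-class transferase of epithelia, had a slope of 0.12 (limma adjusted p = 0.040) and was at 11.50, 11.55 and 11.73 there, against at most 11.45 elsewhere. Cyp2c24 had a slope of 0.70 that did not pass (limma adjusted p = 0.064).

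Cyp2d1 and Cyp2d5, adjacent P450 genes of the debrisoquine-oxidizing subfamily, were lowest on the same 3 arrays. Cyp2d1 was at 9.69 on NP6, 8.47 on HP3 and 9.41 on HP4, and between 10.34 and 11.35 on the other 9 arrays, with a slope of -0.41 ± 0.06 (SE; limma adjusted p = 0.0060). Cyp2d5 was at 9.78, 8.58 and 9.40 on these arrays and had a slope of -0.37 ± 0.06 (SE; limma adjusted p = 0.0070). These genes are closely related copies, so their probes may read the same transcripts and are not independent results. Cyp2d4, with 1 gene between it and Cyp2d5, had a slope of -0.07 and a second probe of the opposite sign. Sult1b1, which sulfates thyroid hormones and phenols, had a slope of -0.21 ± 0.04 (SE; limma adjusted p = 0.019) and was at 9.54, 9.90 and 10.05 on the 3 arrays, against at least 10.20 elsewhere. Cyp4f5, with a slope of -0.31 ± 0.06 (SE; limma adjusted p = 0.019), passed for both Hox genes, as Gsta3 and Gstk1 did, each with opposite signs.

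**Figure D4:**
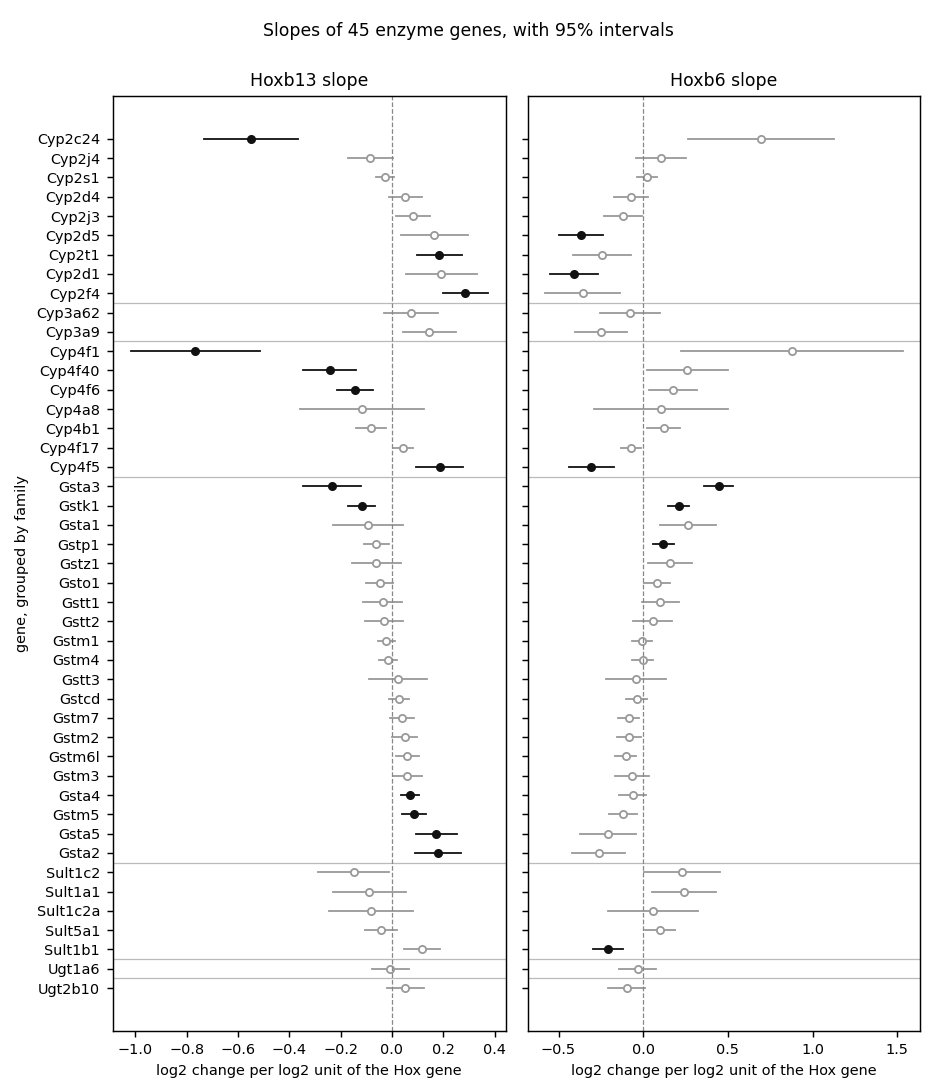
Points are slopes in log2 per log2 unit of Hoxb13 (left) or Hoxb6 (right) for the 45 enzyme genes over 12 arrays, and lines are 95% intervals; filled black points passed an adjusted p under 0.05 in limma. The 13 filled points on the left span both signs in Cyp2, Cyp4 and Gst, and the 7 on the right lie in Cyp2, Cyp4, Gst and Sult.

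Every array high in Hoxb6 was low in Hoxb13, so the levels of the 2 Hox genes were not independent of each other. With both in the fit no enzyme gene passed for either, and 0.0861% of all genes passed for Hoxb13 and 0.0287% for Hoxb6. At an unadjusted p under 0.05, there were 9 enzyme genes for Hoxb13, against 6.8% of all genes, and 10 for Hoxb6, against 10% of all genes. In that fit Cyp4f1 had a Hoxb13 slope of -0.80 and a Hoxb6 slope of -0.07, and Gsta3 had slopes of -0.05 and 0.38. The Hoxb13 slope there was -0.04 for Gstk1 and 0.09 for Cyp4f5, and the Hoxb6 slope was 0.10 for Cyp2c24. The 3 arrays low in both genes are given by their values. On NP3, NP4 and NP5, Cyp4f1 lay between 12.003 and 12.32, as on the Hoxb6 arrays, and Cyp2f4 between 6.04 and 6.18. Gsta3 there lay between 7.42 and 8.18 and Cyp2d1 between 10.49 and 11.35, away from the Hoxb6 arrays. Markers of other cells moved with these ranges in part. The level of the 2 tested small intestine markers of 6, Fabp2 and Rbp2, was 8.42 to 9.15 on the upper Hoxb13 arrays and 9.13 to 10.51 on the others, with Apoa4, Sis, Lct and Alpi not tested. The 5 colon surface markers were at 10.77 to 11.70 and 10.86 to 12.14. With Hoxb13 alone beside diet, 1 gene of each of these lists passed the threshold, with a negative slope. With Hoxb6 alone beside diet, 1 colon surface gene and no small intestine gene passed, also negative. The part of these cells in the enzyme values was not tested.

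NP6, the array that stood apart by its fat markers, also held many extremes among the enzymes. It was the highest of 12 arrays for 8 genes and the lowest for 10. Gsta1, which conjugates electrophiles and binds hydrophobic compounds, was at 10.59 on NP6 and at most 8.83 elsewhere. Sult1a1, the phenol sulfotransferase, was at 10.59 on NP6 and at most 9.49 elsewhere. Gstt1, a theta-class transferase, was at 8.06 and at most 7.16 elsewhere. The endothelial list (Pecam1, Kdr and Vwf) was at 9.79 on NP6 and between 8.52 and 9.20 on the other arrays, and the neural list at 9.02 against 7.29 to 8.07. Its smooth muscle level, 11.35, lay inside the range of the other arrays. The part of these cells in the NP6 values was not tested. Without NP6 there were still 0 enzyme genes past the threshold for diet and 11 for Hoxb13.

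Genes that serve or govern the enzymes were read from 6 lists, of which 60 of 79 genes were tested. None passed for diet in limma. At an unadjusted p under 0.05 there were 13 of 60, against the 6.64% of all genes given above, 11 higher and 2 lower on high protein; the lists were drawn up with earlier results of these data known, so this share is no independent evidence. With Hoxb13 and Hoxb6 in the fit there were 14, of which 11 were higher and 3 lower, against 6.61% of all genes in that fit, and none passed the adjusted threshold. For Hoxb13, 3 of 60 had positive and 6 had negative slopes past the threshold, against 2.27% and 1.69% of all genes. For Hoxb6, 7 had positive and 2 had negative ones, against 1.95% and 2.79%. The negative Hoxb13 count and the positive Hoxb6 count include Ces2c, whose limit is given below. Among receptors and regulators, Ahr, Arnt and Nr1i3 (CAR) did not pass the flag rule. Nr1i2 (PXR), the receptor that induces Cyp3a genes, differed by 0.37 between diets (limma adjusted p = 0.70). Nfe2l2 (NRF2), which drives antioxidant response genes, differed by -0.50 (limma adjusted p = 0.68). Its Hoxb13 slope was -0.06 (limma adjusted p = 0.14). Nr1h4 (FXR), the bile acid receptor, had a Hoxb6 slope of 0.18 (limma adjusted p = 0.039) and a Hoxb13 slope of -0.09 (limma adjusted p = 0.16).

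All 5 genes of electron supply to P450 enzymes were tested. The cytochrome b5 genes Cyb5a and Cyb5b, which pass electrons to P450 enzymes, differed by -0.19 and 0.11 between diets, and the reductase Por by -0.08, none past the threshold. Pgrmc1, a heme-binding P450 partner, had a Hoxb6 slope of 0.10 (limma adjusted p = 0.031) and a Hoxb13 slope of -0.06 (limma adjusted p = 0.097). Cyb5a had a Hoxb13 slope of -0.03 (limma adjusted p = 0.51). Another list held 21 tested enzymes that oxidize, reduce or hydrolyze their substrates. Of these, 1 had a positive and 3 a negative Hoxb13 slope past the threshold, against 2.27% and 1.69% of all genes. The negative ones include the hydrolases Ephx1 and Ces2c. Ces2c was flagged good on exactly 6 arrays. It lay between 5.89 and 6.33 on the upper Hoxb13 arrays and between 6.62 and 7.06 on the others. It may thus have passed the flag rule only through the arrays where it was high, so its slope is not taken as support. Fmo2, a flavin monooxygenase, had a slope of 0.20 (limma adjusted p = 0.019). Ptgr1, which inactivates leukotriene B4 and prostaglandins, had a slope of -0.19 for Hoxb13 (limma adjusted p = 0.011) and of 0.32 for Hoxb6 (limma adjusted p = 0.0034). Aldh1a1, which oxidizes retinaldehyde, had the smallest diet p of this list. Its mean level was 9.31 on normal protein (SD 0.71, n = 6), and the high protein mean was 11.49 (SD 1.16, n = 6). The difference of 2.19 ± 0.49 (SE) did not pass (limma adjusted p = 0.68). Nqo1, the quinone reductase, differed by 1.33 between diets (limma adjusted p = 0.68). On normal protein its mean was 7.89 ± 0.64 (SD, n = 6), and the high protein mean was 9.22 ± 0.89 (SD, n = 6).

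Of 10 tested genes that supply cosubstrates, Gclc, which makes the first bond of glutathione, had a Hoxb13 slope of 0.17 (limma adjusted p = 0.012). It lay between 9.60 and 10.43 on the upper Hoxb13 arrays and between 8.68 and 9.74 on the others. Slc35b3, a carrier of the sulfate donor into the Golgi, had a slope of -0.10 (limma adjusted p = 0.028). Between diets, Ugp2, which makes UDP-glucose, differed by -0.43 (limma adjusted p = 0.70) and the glutathione reductase Gsr by 0.22 (limma adjusted p = 0.72). Among other conjugating enzymes, Mgst3, a membrane-bound glutathione transferase, had a slope of -0.10 (limma adjusted p = 0.031) and Tpmt, the thiopurine methyltransferase, one of 0.07 (limma adjusted p = 0.042). Tpmt differed by 0.41 between diets (limma adjusted p = 0.70) and the N-acetyltransferase Nat2 by -0.52 (limma adjusted p = 0.73). Of 6 export pumps tested, Abcg2 (BCRP), which exports sulfate conjugates, had a Hoxb13 slope of -0.22 (limma adjusted p = 0.035). Abcb1b, a P-glycoprotein gene, had one of -0.19 (limma adjusted p = 0.20). Abcc1 (MRP1), which exports glutathione conjugates, had the smallest diet p of the pumps, with a difference of 0.42 (limma adjusted p = 0.68), and Abcc4 (MRP4) followed with 0.29 (limma adjusted p = 0.68).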

How the data were processed

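Cy3-labelled RNA of 12 samples, 6 per diet, was measured on a rat array. Per the file headers, the authors scanned at 532 nm with a gain of 600 and measured spots with GenePix Pro 6.1.0.4; the deposited intensity values are linear and not normalized, and the array number limits precision. The deposited series table holds log2 values, for which the submitters' processing notes name RMA without a version; its identifiers were displaced by 1 row, and it served as an alternative only. Intensities were corrected with normexp (offset 50) and quantile normalized, controls were dropped, and spots of a probe were averaged. Probes flagged good on at least 6 arrays were tested, with the probe of highest mean per gene. Names came from RefSeq accessions (GRCr8), which matched 18468 of 24081 probes; array Gsta3 is now Gsta1, and 2 array Gsta5 probes are Gsta3. Tests used limma 3.58.1 in R 4.3.3 over all genes with Benjamini-Hochberg adjustment, and were tested on simulated data. Slopes carried diet as a term. Diet p-values are two-sided. Named were the 4 genes of smallest p on each side of diet, Hoxb13 and Hoxb6, the most variable gene per family, and 2 per pathway list for diet and Hoxb13; other names account for members or were chosen after their values were seen. Members and lists were chosen with earlier results of these data known. Alternatives covered scaling, background, flags, probes, slide, replicate number, array weights and each array left out.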

Additional observations from a re-analysis of the deposited data

Results flagged for a closer look

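Among 44 groups of 6 arrays, 22 named genes in each diet, 2 had 1 array far from the rest of its group, where chance gives about 1 in 20. Gsta1 was at 10.59 on NP6, and the nearest normal protein array was at 8.77. Ugt2b10, a glucuronosyltransferase, was at 7.33 on NP6, below the nearest normal protein array at 7.73. Both values belong to the array with the fat list at 13.73.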

How the results depend on the processing

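No enzyme gene passed for diet under any alternative, with or without the Hox terms. The 13 Hoxb13 slopes kept their sign in every gene-level setting run but one. Enzyme genes passing for Hoxb13 numbered 13, and 8 with the deposited signal minus negative controls, 0 with the deposited table moved by 1 row, 8 with probes flagged good on all 12 arrays, 7 with no flag filter, 8 with the slide block, 8 without the 2 arrays farthest from the median of Hoxb13, 0 within normal protein and 7 within high protein. Alternatives added after the data were seen gave 0 with only arrays under a Hoxb13 level of 10, where Cyp4f1 (0.11) and Cyp4f40 (0.14) changed sign, and 0 with the other Hox gene as a term. Without single arrays the count ran from 4 to 13. For Hoxb6 the count was 7; it was 2 with the slide block, 16 with the contrast of Hoxb13 against the average of Hoxb6 and Hoxb7, 1 without the 2 farthest arrays, 4 with array weights, 0 with the other Hox gene, and 4 to 9 without single arrays, with the sign of the 7 kept throughout. Over all genes, the deposited table called 59 for Hoxb13 against 414, and the slide block 215. With the replicate number as a block, 1 enzyme gene passed for Hoxb13, 1 for Hoxb6 and 0 for diet; the same-numbered arrays' deviations correlated between -0.11 and 0.40, above 0.1 in 3 of 6, so the numbers were not taken to pair samples. The diet difference of Gsta1 turned to 0.0019 within slide 1 and 0.024 within slide 3. Within-diet and within-slide fits hold 6 and 4 arrays, which limits them; other causes were not tested.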
